A study of Homo sapiens with 8 samples.

Results

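A single array of H1299 cells given hairpin RNA against UGT1A3 (knockdown) is described here against the array of its control cells. H1299 is an established line of human non-small cell lung carcinoma. The study placed total RNA on 8 one-colour Affymetrix PrimeView arrays, of which 2 form this comparison and 6 compare USF1 knockdown with its own controls, 3 arrays a side. The genotype and title of the control array make it the control for UGT1A3 knockdown, but its description, like that of the knockdown array, names hairpins against UGT1A3. No label names a control hairpin. The genotype and title were followed, and the direction of every difference rests on them. They name no time after transfection, no clone and no number of different hairpins. All 18132 genes with a probe set annotated to 1 symbol were members. Of these, 11620 had at least 1 probe set whose mean over both arrays reached a log2 intensity of 4.76, the 40th percentile, which is called the dim limit here. A gene's value was the median, over its probe sets above that limit, of knockdown minus control on the log2 scale. A gene was counted as higher or lower where its difference reached 0.32 in size on the log2 scale, and folds of 1.5 and 2 were counted too. With 1 array a side there is no replicate check, no p-value and no standard error, and the differences describe 2 arrays.

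UGT1A3 is a UDP-glucuronosyltransferase of the endoplasmic reticulum that joins glucuronic acid to lipophilic compounds such as bile acids, steroids and drugs. It is 1 of 9 UGT1A genes on the platform that use alternative first exons spliced to common later exons, so probes in the common exons cannot separate them. E2F factors are known to transcribe, before S phase, the genes of the machinery that licenses origins, unwinds DNA and copies it. Interferon-stimulated genes encode antiviral proteins, and some also respond to introduced RNA.

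The promoters of 5 genes are printed, from 3 gene groups described below, to show letters that known regulators of these groups bind. Each is 200 bases long, from 180 bases before the annotated start to 20 bases from it on, taken from RefSeq with assembly GRCh38.p14. MCM2 (chr3:127598231-127598430, plus strand) and MCM6 (chr2:135876424-135876623, minus strand) encode subunits of the replicative helicase, and capitals mark the E2F letters TTTNGCGC on either strand. H2AC11 (chr6:27132863-27133062, plus strand) and H2BC8 (chr6:26216669-26216868, minus strand) encode core histones, and capitals mark the CCAAT box. IFIT3 (chr10:89327817-89328016, plus strand) is an interferon-induced gene, and capitals mark the interferon response letters, GAAA followed by NN and GAAA, on either strand. MCM6 and IFIT3 were chosen after their values and matches had been seen.
MCM2: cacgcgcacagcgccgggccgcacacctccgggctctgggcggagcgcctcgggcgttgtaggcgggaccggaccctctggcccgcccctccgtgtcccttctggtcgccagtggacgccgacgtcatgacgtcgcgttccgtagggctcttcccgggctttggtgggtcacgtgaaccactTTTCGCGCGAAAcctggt
MCM6: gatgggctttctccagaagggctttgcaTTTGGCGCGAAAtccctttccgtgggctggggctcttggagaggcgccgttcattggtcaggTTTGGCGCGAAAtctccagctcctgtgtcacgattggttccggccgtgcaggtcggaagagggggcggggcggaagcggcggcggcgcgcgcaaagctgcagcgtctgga
H2AC11: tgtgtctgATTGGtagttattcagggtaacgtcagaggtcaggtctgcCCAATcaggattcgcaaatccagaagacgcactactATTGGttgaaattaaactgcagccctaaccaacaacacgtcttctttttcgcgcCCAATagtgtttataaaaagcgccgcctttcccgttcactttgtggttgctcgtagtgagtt
H2BC8: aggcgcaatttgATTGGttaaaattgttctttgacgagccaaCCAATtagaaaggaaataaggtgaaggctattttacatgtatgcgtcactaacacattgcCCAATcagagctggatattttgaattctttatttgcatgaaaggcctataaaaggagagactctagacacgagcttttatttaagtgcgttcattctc
IFIT3: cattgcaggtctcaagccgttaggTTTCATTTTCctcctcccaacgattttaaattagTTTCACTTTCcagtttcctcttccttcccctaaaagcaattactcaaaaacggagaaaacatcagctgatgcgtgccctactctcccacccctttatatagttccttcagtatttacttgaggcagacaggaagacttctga

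MCM2 holds overlapping E2F matches on both strands just after its start, and MCM6 holds 4 matches in 2 such pairs, beginning 152 and 90 bases before the start. H2AC11 holds 4 CCAAT boxes and H2BC8 holds 3. IFIT3 holds 2 interferon response matches, beginning 156 and 122 bases before the start. Over full windows of 300 bases, E2F letters were in 13 of 33 DNA replication promoters (39.4%), against 1.83% of 27305 promoters and 3.14% of those of genes above the dim limit. They were also in 6 of 22 histone promoters (27.3%) and in 1 of 34 promoters of mitosis genes (2.94%). The CCAAT letters were in 20 of 22 histone promoters (90.9%), in 25 of 34 promoters of mitosis genes (73.5%) and in 35.7% of all promoters. The interferon response letters were in 14 of 22 promoters of the interferon list (63.6%), against 3.65% of all. Where a gene had several windows the first listed was used, and the E2F and interferon letters were chosen after values had been seen. A match is a description of the letters only.

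The UGT1A locus gave the check of the target. Its 9 probe sets were each shared by UGT1A3 with other UGT1A genes, 8 of them with all 9, and none belonged to UGT1A3 alone. None reached the dim limit. The brightest read 4.56 on the control array and 4.31 on the knockdown array, and the next read 4.53 and 4.08. The remaining 7 lay between 2.40 and 3.10 on both arrays, where the median of the array's background probe sets was 2.84. In all, 8 of 9 were lower on the knockdown array, with differences of -0.45 to 0.06 and a median of -0.15. These readings concern the UGT1A genes jointly and lie near background, so the size of the UGT1A3 knockdown itself was not measurable here.

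The rest of the glucuronidation route was read next, from the supply of UDP-glucuronic acid to the export of glucuronides. UDP-glucose dehydrogenase, UGDH, which makes UDP-glucuronic acid, read 8.91 and 9.03 on the control and knockdown arrays, as means of its probe sets. ABCC3, a basolateral pump for glucuronides and bile salts, read 4.73 on the control array, just under the dim limit, and 5.70 on the knockdown array, a difference of 0.97. ABCC2, its apical counterpart, read 5.10 and 5.80, a difference of 0.69, and SLC35D2, a nucleotide sugar transporter, read 9.41 and 9.78. These 3 were the members higher by 0.32 or more among 12 measured of a list of 13, against 9.79% of all genes, and ABCC3 passed the dim limit only through the knockdown array. The list median was 0.11. UGT8, a galactosyltransferase, had 3 probe sets with differences of -0.10 to 0.25, and the only probe set of UGT3A1 above the limit read 5.49 and 5.12.

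Across the 11620 genes, 1138 (9.79%) were higher by 0.32 or more on the knockdown array and 867 (7.46%) were lower by 0.32 or more. At 1.5-fold there were 224 higher (1.93%) and 148 lower (1.27%), and at 2-fold there were 18 higher (0.155%) and 8 lower (0.0688%). Some higher genes passed the dim limit only through the knockdown array. Where both arrays had to reach it, 197 were higher and 146 lower at 1.5-fold, and 12 higher and 8 lower at 2-fold. Of 7146 genes with 2 or more probe sets above the limit, 273 (3.82%) had all of them higher by 0.32 or more and 286 (4.0%) had all of them lower by 0.32 or more. The 6 pairs of replicate arrays within the USF1 groups served as a yardstick for array-to-array spread, read in another set of arrays. The labels do not say whether those arrays came from separate cultures, so spread between cultures may be missing from this yardstick. Their medians were 6.53 to 6.55, against 5.59 and 5.63 in the UGT1A3 pair. In those pairs 60 to 451 genes passed 0.32 in either direction, 0 to 16 passed 1.5-fold and none passed 2-fold, against 2005, 372 and 26 in the UGT1A3 pair. Genes with every probe set past 0.32 numbered 0 to 26 in the replicate pairs and 559 in the UGT1A3 pair. Whether probe sets of a gene share probes is not known here, so their agreement may not be independent. The SD of the gene differences was 0.25 in the UGT1A3 pair and 0.08 to 0.13 in the replicate pairs.

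The balance of higher and lower genes depended on how the arrays were scaled, since the arrays' medians were 5.59 (control) and 5.63 (knockdown). When each array was centred on its median, 933 genes were higher by 0.32 or more and 1091 lower, so the higher share was 46.1% in place of 56.8%, and for genes with every probe set past the fold the counts were 208 and 357. The median gene difference was 0.02 as deposited and -0.01 after centring. Labelling spikes, bacterial transcripts added to the RNA, read higher on the knockdown array by 0.40 to 0.54, and hybridization spikes by 0.09 to 0.27. The 3' minus 5' difference, a sign of RNA integrity, was -0.14 on both arrays for GAPDH and 0.34 and 0.40 for ACTB. The part of the spikes in the differences below was not tested.

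**Figure D1:**
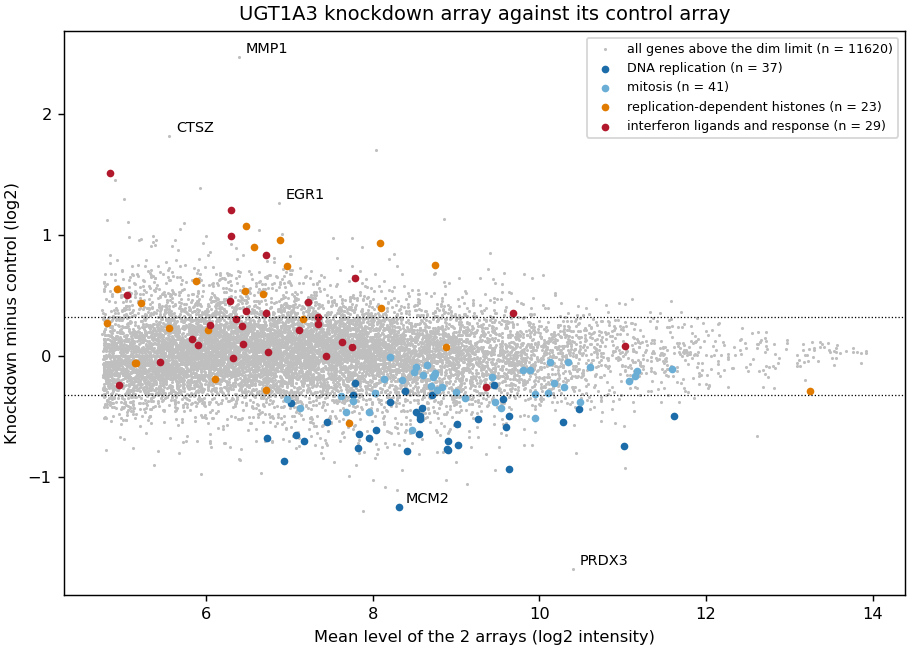
Each grey point is 1 of the 11620 genes, with its mean log2 intensity over both arrays on the horizontal axis and knockdown minus control (log2) on the vertical axis, and dotted lines mark 0.32 in either direction. Coloured points mark 4 lists. All 37 DNA replication genes and all 41 mitosis genes lie below 0, while 17 of 23 histone genes and 24 of 29 interferon genes lie above it.

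DNA replication genes were lower on the knockdown array as a block. Of 38 genes on the list, 37 were measured, all 37 were below 0, and 34 were lower by 0.32 or more against 7.46% of all genes. In a bulk culture fewer cells of a phase and less RNA per cell cannot be told apart. The median difference was -0.56, whereas the largest list median in size between replicate USF1 arrays was 0.04. The genes were covered by 87 probe sets above the limit, of which 86 were lower and 80 (92%) were lower by 0.32 or more, against 8.48% of all such probe sets. The 1 probe set that was not lower belonged to RFC5. Under 8 other ways of scaling, filtering and summarising, 32 to 35 genes were lower by 0.32 or more and the median lay between -0.59 and -0.55.

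The origin licensing genes, which load the helicase onto DNA before S phase, were lowest among the roles, with 10 of 11 past 0.32 and a median of -0.70. MCM2 had 4 probe sets, which read 8.76, 8.75, 8.58 and 9.52 on the control array and 7.46, 7.81, 7.29 and 8.31 on the knockdown array. Every MCM2 probe set was thus lower, with differences of -1.30 to -0.94, to give a gene value of -1.25. MCM4, a subunit of the same hexamer, had 5 probe sets spanning 9.02 to 10.79 on the control array and 8.08 to 10.03 on the knockdown array, with differences of -0.99 to -0.76. MCM10, which helps to activate the loaded helicase, differed by -0.87 over 3 probe sets that ran from -0.96 to -0.67. The other MCM subunits differed by -0.77 (MCM5), -0.75 (MCM7), -0.64 (MCM6) and -0.59 (MCM3). The whole hexamer was lower. CDC6 and CDT1, the loading factors, differed by -0.70 and -0.65, and ORC1, the cell cycle regulated origin subunit, by -0.66. ORC6, another origin subunit, read 8.53 and 8.23, a difference of -0.29, and was the only licensing gene short of 0.32.

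The genes that act at the fork were lower too. CDC45, which joins the MCM hexamer to form the active helicase, had 3 probe sets at 8.60 to 9.06 on the control array and 7.82 to 8.41 on the knockdown array, a gene difference of -0.79. The GINS subunits that complete that helicase differed by -0.78 (GINS2), -0.68 (GINS3), -0.39 (GINS4) and -0.33 (GINS1). All 7 measured polymerase and primase genes were lower by 0.32 or more, from -0.71 for POLD1, the catalytic subunit of polymerase delta, to -0.43 for POLA2. RFC3, of the loader that places the sliding clamp, differed by -0.77 with both probe sets between -0.80 and -0.75. PCNA, the clamp itself, differed by -0.38, and RFC2 was the clamp loader gene short of 0.32 at -0.24. FEN1 and LIG1, which trim and join Okazaki fragments, differed by -0.56 and -0.55. TYMS, TK1, RRM2 and RRM1, which supply deoxynucleotides, differed by -0.55 (RRM2) to -0.36 (RRM1). UHRF1, which recognises newly copied DNA for methylation, differed by -0.74, and CHAF1B, of the chromatin assembly factor, by -0.22.

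**Figure D2:**
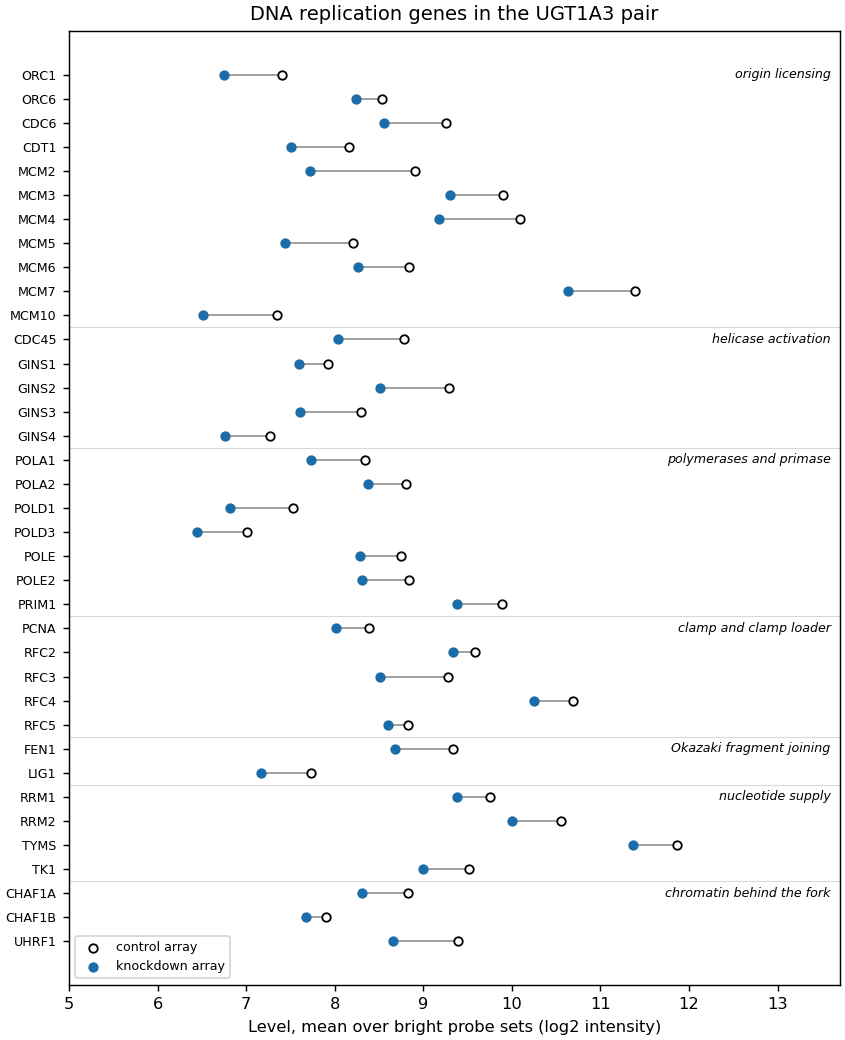
Each row is a DNA replication gene, grouped by role, with the mean log2 intensity of its probe sets on the control array (open circle) and on the knockdown array (filled circle). The filled circle lies to the left of the open circle in all 37 rows, and the widest gap is that of MCM2.

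Neighbouring functions were also lower. Mitosis genes, which build the spindle and its checkpoint, were all below 0 (41 of 41 measured, of 42), but with smaller differences: the median was -0.23, and 12 were lower by 0.32 or more against 7.46% of all genes. The lowest were CDC20, the activator of the anaphase-promoting complex (-0.62, with probe sets at -0.72 to -0.18), CCNA2, the S and G2 cyclin (-0.51), PLK4, which duplicates centrioles (-0.47), and FOXM1, a transcription factor of G2 and mitosis genes (-0.46). CCNB1, the mitotic cyclin, read 11.65 and 11.54, and NEK2 differed by -0.01. The difference between replication and mitosis genes was itself not tested.

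The lists of recombination and mismatch repair, of nucleotide and polyamine synthesis, and of cohesin, condensin and chromatin assembly were drawn up after values had been seen. Their counts stand against 7.46% lower and 9.79% higher among all genes. Of 32 measured recombination, Fanconi and mismatch repair genes, 14 were lower by 0.32 or more and none higher. EXO1, an end-resecting nuclease, was at -0.85 and BLM, a helicase, at -0.61. Of 28 nucleotide and polyamine genes, 14 were lower and none higher, with DUT, which removes dUTP, at -0.77, PRPS1, which makes the ribose donor of nucleotides, at -0.76, and SRM, spermidine synthase, at -0.74. Of 23 genes of the cohesin, condensin and chromatin assembly list, 10 were lower and 1 higher, with ASF1B, a histone chaperone, at -0.78. LMNB1, a nuclear lamin, was the higher member at 0.42. The medians of these 3 lists were -0.29, -0.31 and -0.31.

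Of 28 measured regulators of S phase entry, 5 were higher by 0.32 or more and 6 lower, against 9.79% and 7.46% of all genes, and the list median was -0.12. The other 17 did not pass. E2F1, an activating E2F factor, read 7.77 and 7.07 on its only probe set, a difference of -0.70, and E2F2, of the same class, differed by -0.60 over probe sets at -0.88 and -0.32. CCND1, cyclin D1, had 4 probe sets that read 11.06, 9.98, 8.93 and 9.50 on the control array and 10.46, 9.34, 8.19 and 8.86 on the knockdown array, and the gene differed by -0.64. SKP2, which marks p27 for destruction, differed by -0.39, E2F8, a repressive E2F factor, by -0.36 and CDC25A, a phosphatase that activates cyclin-dependent kinases, by -0.34. The higher members included inhibitors of cyclin-dependent kinases: CDKN1C differed by 0.56, CDKN2B by 0.53, CDKN1B by 0.49 and CDKN1A by 0.39. RBL2, a pocket protein of resting cells, differed by 0.37. These were all the members that passed in either direction.

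Of the 286 genes with every probe set lower by 0.32 or more, 29 (10.1%) were on the lists of replication, mitosis and G1 control, against 1.05% of the 7146 genes with several probe sets, and 1 of the 273 higher genes was. With the 3 lists drawn up after values had been seen, whose share is partly built in by that choice, the count was 42 (14.7%) against 1.82%. Of the 286 lower genes, 226 were on no list other than those of markers, against 6394 of the 7146 genes and 240 of the 273 higher genes. The lists thus held a larger share of the lower genes than of all genes. They still describe a minority of what was lower.

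Nucleolar ribosome biogenesis genes were lower as well: 35 of 36 measured were below 0, 12 were lower by 0.32 or more against 7.46% of all genes and none was higher, with a median of -0.28. BOP1, a factor of large subunit assembly, read 9.47 and 8.84. NOP56, a core protein of box C/D particles, had 4 probe sets at 10.48 to 11.80 on the control array and 9.93 to 11.25 on the knockdown array, all within -0.56 to -0.55. UTP20 and DKC1, the pseudouridine synthase, differed by -0.48 and -0.44. The 72 ribosomal protein genes, whose products these factors assemble, had a median of 0.04. Of them 2 were lower and none higher, against 7.46% and 9.79% of all genes. MYC, a known activator of ribosome biogenesis, read 10.67 and 10.36, a difference of -0.31.

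Replication-dependent histone genes ran the other way from the replication machinery. Of 54 on the list 23 were measured, 12 were higher by 0.32 or more against 9.79% of all genes and 1 was lower, with a median of 0.39. H2AC11 had probe sets at 6.03 and 6.80 on the control array and 6.96 and 7.78 on the knockdown array, a difference of 0.96. H2BC5 read 7.77, 8.33 and 6.60 against 9.02, 9.24 and 7.53, a difference of 0.93. H2BC8 read 6.15 and 6.09 against 7.05 and 6.98, on probe sets with nearly the same values. H2BC4, on 1 probe set, read 5.94 and 7.01. The exception was H2BC9 at -0.56, and the brightly read H4C3 differed by -0.29. Histone genes are near-identical copies that probes may not separate, and most of their transcripts lack a poly(A) tail, so the values of single genes are uncertain. The list median moved with the dim limit, between 0.07 with no limit and 0.60 with the limit at the 60th percentile. With no limit, 51 were measured, 11 higher by 0.32 or more and 4 lower. Where both arrays had to reach the limit, 21 were measured, 11 higher and 1 lower.

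**Figure D3:**
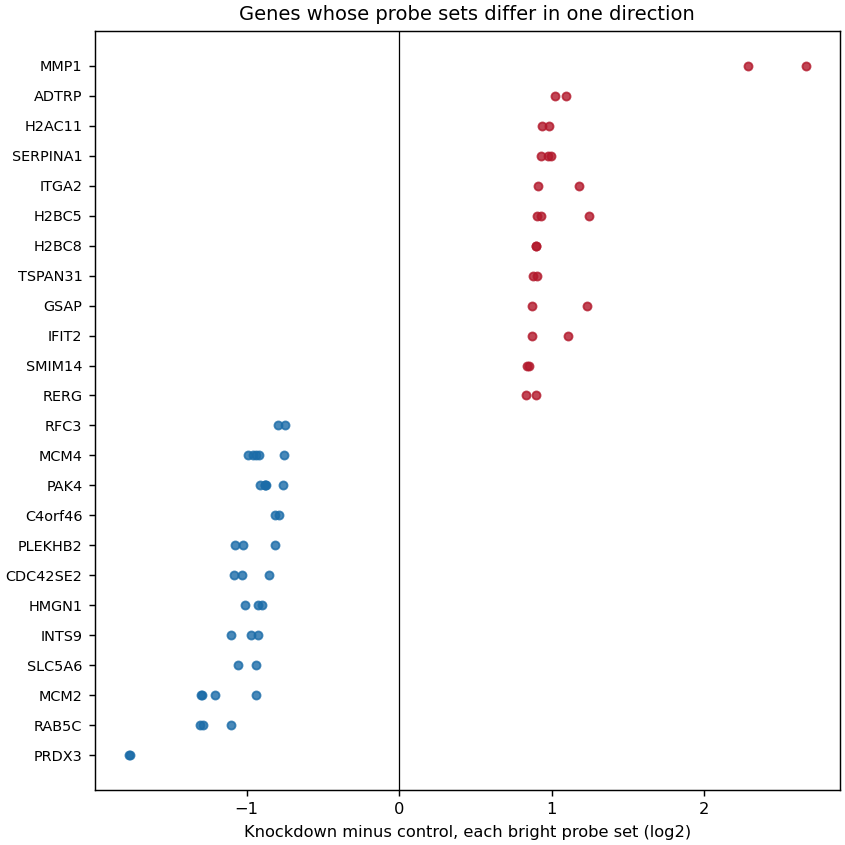
Each point is 1 probe set above the dim limit, placed by knockdown minus control (log2), for the 12 genes in each direction with the largest smallest-in-size difference among genes whose probe sets share a sign. MMP1 stands apart at 2.29 and 2.67, PRDX3 has both points near -1.77, and MCM2, MCM4 and RFC3 are among the 12 lower genes.

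Interferon genes were higher. Of 44 on the list 29 were measured, 12 were higher by 0.32 or more against 9.79% of all genes and none was lower, with a median of 0.26. With no dim limit, 40 were measured and the median was 0.13. Of their 53 probe sets, 21 (39.6%) were higher by 0.32 or more, against 10.4% of all. IFNE, an epithelial type I interferon, read 4.09 on the control array and 5.61 on the knockdown array, and passed the dim limit only through the latter. ISG20, an exonuclease, read 5.70 and 6.91. IFIT2, which binds viral RNA, had probe sets at 5.18 and 6.43 on the control array and 6.05 and 7.53 on the knockdown array. IRF9, a transcription factor of the type I interferon response, read 5.37, 7.26, 6.61 and 6.03 against 6.29, 8.21, 7.20 and 6.78, so all 4 of its probe sets were higher, by 0.59 to 0.95. IFI6 differed by 0.64, IFI44 by 0.51, PARP9 by 0.45, IFIT3 by 0.44 and ISG15, a ubiquitin-like modifier, by 0.36. The RNA sensors RIGI and IFIH1 differed by 0.35 and 0.33. The differences of the receptor subunits IFNAR1 and IFNAR2 were 0.12 and 0.10, and IRF1, which is induced by interferon gamma, differed by -0.02.

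MMP1, interstitial collagenase, was the gene furthest above its control. Its 2 probe sets read 5.17 and 5.13 on the control array and 7.84 and 7.42 on the knockdown array, a gene difference of 2.48 or 5.57-fold. MMP14, a membrane-bound metalloproteinase, differed by 0.75 over 4 probe sets at 0.62 to 0.88, and PLAT, tissue plasminogen activator, by 0.38. These were all of the 24 measured genes of metalloproteinases and inhibitors higher by 0.32 or more, a share near the 9.79% of all genes, and none was as much lower. ITGA2, the collagen-binding integrin subunit, read 6.16 and 6.06 against 7.34 and 6.98, and ITGB5, of a vitronectin receptor, read 8.69 and 7.60 on 1 probe set. The remaining 9 measured integrins stayed within 0.32.

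Early response genes of the MAP kinase route were partly higher. EGR1, a zinc finger factor induced within minutes by ERK signalling, had 6 probe sets, which read 7.30, 5.20, 5.09, 5.42, 7.03 and 7.80 on the control array and 8.83, 6.02, 6.26, 5.93, 8.41 and 9.17 on the knockdown array. All 6 were higher, though by unequal amounts of 0.51 to 1.53. FOS differed by 0.64 over probe sets at 0.25 to 1.22, and JUN by 0.58. DUSP6, the phosphatase that turns ERK off, read 8.98, 8.59, 8.78 and 9.53 against 9.91, 9.45, 9.62 and 10.35, with the probe sets within 0.82 to 0.93. ETV1 differed by 0.65. Other ERK targets did not follow: FOSL1 differed by -0.38, DUSP7 by -0.68, SPRY1 by -0.03 and DUSP5 by -0.26. In all, 6 of 26 immediate early genes were higher by 0.32 or more and 2 lower, and 4 of 21 ERK feedback genes were higher and 2 lower, against 9.79% higher and 7.46% lower of all genes. EGR4, among the 6, passed the dim limit only through the knockdown array.

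The title of the study places the knockdown in neurotrophin signalling. Of 13 neurotrophins and receptors 4 were measured and none passed 0.32: NGFR, the p75 receptor, read 4.81 and 4.87, BDNF differed by -0.02 over 5 probe sets, and KIDINS220, a scaffold of the receptors, by 0.30. Of 22 adaptors and small GTPases 1 was higher (IRS1, 0.43) and none lower, and of 20 MAP kinases 1 was higher (MAPK10, 0.63) and 2 lower (MAPK9, -0.39, and RPS6KA2, -0.33). The PI3K, PLC and survival members had 5 of 36 higher and 1 lower, against 9.79% and 7.46% of all genes. PLCG1, phospholipase C gamma, differed by 0.47 and MAGED1, a p75 adaptor, by 0.40. AKT1, the survival kinase, was the lower member, with both probe sets at -0.40 and -0.38. RAP1A, a small GTPase of this route, had 3 probe sets at 0.04 to 0.06 and another that read 6.54 on the control array and 10.88 on the knockdown array. The gene's median was 0.05, and that other probe set alone would have made it the largest difference of all.

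TGF-beta and BMP genes leaned upward, with 22 of 26 measured above 0, 6 higher by 0.32 or more against 9.79% of all genes, none as much lower against 7.46%, and a median of 0.21. LTBP2, a latent TGF-beta binding protein of the matrix, differed by 0.62. TGFBI read 7.91, 7.20, 8.21 and 7.83 against 8.44, 7.77, 8.80 and 8.42, with every probe set between 0.53 and 0.60. LTBP1 differed by 0.54 and TGFBR2, the type II receptor, by 0.52. LXR targets and sterol export genes went both ways, with 4 of 12 higher and 2 lower, against 9.79% and 7.46% of all genes, and a median of 0.23. ABCA1, the cholesterol efflux pump, read 6.66 and 7.35, and APOE read 7.70 and 8.26, while SREBF1 and SCD, which LXR also induces, differed by -0.39 and -0.34. Among autophagy genes 8 of 36 were higher and 1 lower, against 9.79% and 7.46% of all genes, and 5 were higher with 16 intensity units added before log2. The members included TP53INP1 at 0.98, WIPI1 at 0.65 and GABARAPL1, which is conjugated to lipid on autophagosomes, at 0.60. WIPI2, a relative of WIPI1, was the lower one at -0.51.

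The gene furthest below its control was PRDX3, the mitochondrial peroxiredoxin that removes hydrogen peroxide. Its probe sets read 11.49 and 11.07 on the control array and 9.72 and 9.31 on the knockdown array, which is -1.77 for the gene. Oxidative phosphorylation genes around it did not share this. Of 44 measured, none was higher by 0.32 or more and 1 was lower, against 9.79% and 7.46% of all genes. RAB5C, an early endosome GTPase, had 3 probe sets at 8.31 to 8.80 on the control array, which differed by -1.11, -1.29 and -1.31. SLC5A6, the biotin and pantothenate transporter, differed by -1.06 and -0.94 on its probe sets, INTS9, of the Integrator complex, by -0.97, and HMGN1, a nucleosome-binding protein, by -0.93. CDC42SE2 and PLEKHB2 both differed by -1.03, PAK4, a kinase downstream of CDC42, by -0.88 over 5 probe sets, and C4orf46 by -0.80.

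Further genes with agreeing probe sets were higher. ADTRP, a lipid hydrolase of the plasma membrane, differed by 1.06, GSAP, the gamma-secretase activating protein, by 1.05, SERPINA1, alpha-1 antitrypsin, by 0.98, TSPAN31 by 0.89, RERG, a Ras-like protein, by 0.86 and SMIM14 by 0.85. Among genes with 1 probe set above the limit the largest differences were those of CTSZ, a lysosomal protease (4.64 to 6.46), ARL14, a small GTPase (7.19 to 8.90), IFNE, AGBL2, SYCE3 and DNAI4. The 43 measured lysosomal genes had a median of 0.15, with 3 higher and 1 lower, against 9.79% and 7.46% of all genes. AGBL2 and DNAI4 read 4.18 and 4.36 on the control array, under the limit like CTSZ and IFNE. The lowest with 1 probe set were ITGB5, SPG21 (9.67 to 8.61), IFI30 (6.43 to 5.45), PEBP1, the Raf kinase inhibitor (9.93 to 8.99), EIPR1 (8.83 to 7.88) and SPATA21 (5.83 to 4.92). Probe sets disagreed in 7 of 199 genes that were at least 1.5-fold different and had several, and LSM5 was the clearest case: 1 probe set went from 7.42 to 5.76 and the other from 11.47 to 11.38.

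Markers of other cell types were looked for on both arrays. Of the fibroblast, leukocyte, endothelial, and alveolar or airway markers, 11 of 34 were above the dim limit. Of these 11, only CD68 was higher by 0.32 or more (0.38), a share near the 9.79% of all genes. None was as much lower, against 7.46% of all genes. PTPRC and COL1A1, which mark leukocytes and fibroblasts, had no probe set with 1 symbol above the limit. Other markers of these cells did: CD3E, of leukocytes, read 5.02 on the control array and 4.74 on the knockdown array. PDGFRB, of fibroblasts, read 5.38 and 5.26. Of 7 H1299 markers 6 were measured and no gene value passed 0.32. Of their 26 probe sets 4 (15.4%) were lower by 0.32 or more, against 8.48% of all, and none was higher. CD44 had 10 probe sets that disagreed, from -0.90 to 0.04. Neuroendocrine markers were 7 of 12 measured: the granule protein CHGB differed by 0.99 over 4 probe sets, the vesicle protein SYT1 by 0.74 and SNAP25 by 0.43, while SYP, synaptophysin, differed by -0.33. The mean level of the 7 was 7.05 on the control array and 7.28 on the knockdown array. CHGA was not among those measured, and their part in the other results was not tested. SERPINA1 was the only 1 of 9 hepatocyte and enterocyte markers measured.

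**Figure D4:**
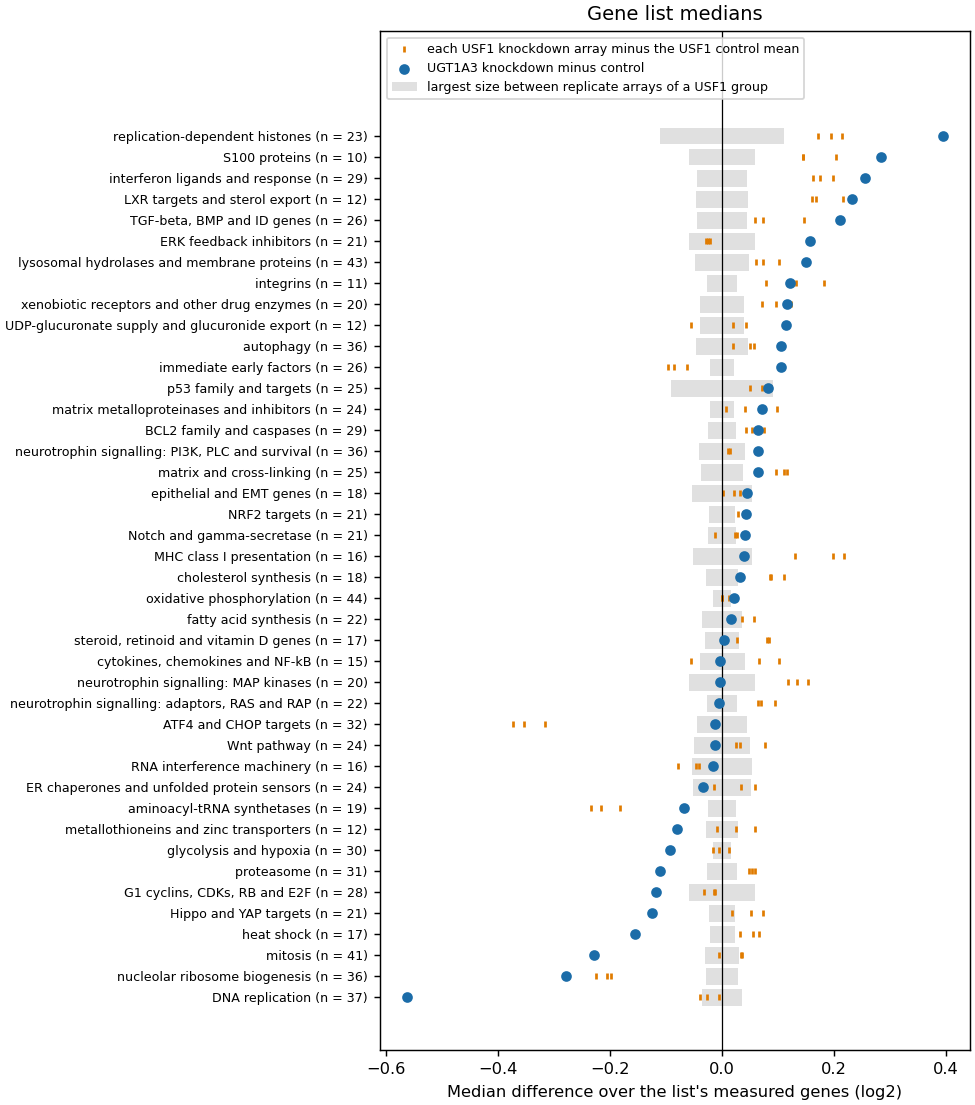
Blue points give the median knockdown minus control (log2) of each list with at least 10 measured genes in the UGT1A3 pair, grey bars give the largest size of that median between replicate arrays of a USF1 group, and orange ticks give each USF1 knockdown array minus the mean of its controls. DNA replication (-0.56) and histones (0.39) are at the ends, and the USF1 ticks of DNA replication lie between -0.04 and -0.01.

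The USF1 arrays were set beside these values, because the study knocked down both genes in the same cell line. No array is shared between the sets, and no gene was tested across them. With 3 arrays against 3, limma called 5849 of 29576 probe sets up (19.8%) and 5181 down (17.5%) at a Benjamini-Hochberg adjusted p of 0.05. Of 6889 genes with several probe sets above the limit in both sets, 662 had every probe set up (9.61%) and 645 every one down (9.36%). Nothing in the labels says that the 3 arrays of a group came from separate cultures, so these p-values measure only the spread between the arrays. Of the 258 such genes with every probe set higher by 0.32 or more in the UGT1A3 pair, 82 (31.8%) were wholly up after USF1 knockdown and 30 (11.6%) wholly down, and those 82 were 12.4% of all genes wholly up there. Of the 284 lower ones, 50 (17.6%) were wholly down and 23 (8.1%) wholly up, and those 50 were 7.75% of all genes wholly down there.

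For DNA replication genes the list median was -0.01, -0.03 and -0.04 on the 3 USF1 knockdown arrays against their control mean, and -0.56 in the UGT1A3 pair. None of the 4 MCM2 probe sets passed after USF1 knockdown (change -0.06 to 0.01, limma adjusted p 0.238 to 0.866). MCM4 fell there by 0.15 as a median, with 4 of 5 probe sets past the threshold (limma adjusted p 0.00597 to 0.103). Mitosis genes had medians of 0.04, 0.03 and -0.01. Other lists had the same sign in both sets: nucleolar genes were at -0.20 to -0.22 after USF1 knockdown, histones at 0.17 to 0.21 and interferon genes at 0.16 to 0.20. ATF4 and CHOP targets, genes of the amino acid and unfolded protein response, were at -0.32 to -0.37 after USF1 knockdown and at -0.01 in the UGT1A3 pair.

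Single genes went both ways. MMP1 fell by 1.64 in the USF1 set (SE 0.04, 3 arrays a side, limma adjusted p 8.05e-06 and 1.22e-05 for its 2 probe sets), from 10.38, 10.33 and 10.40 to 8.72, 8.74 and 8.75. Its control level thus stood at 10.33 to 10.40 in the USF1 set and at 5.15 in the UGT1A3 set, where array medians differ by about 1 log2 unit, from 6.53 to 6.55 against 5.59, and the scaling between the sets is not known. EGR1 fell by 0.82 after USF1 knockdown with 6 of 6 probe sets past the threshold (limma adjusted p 4.21e-05 to 0.0159), and DUSP6 fell by 0.40 with 4 of 4 (0.000186 to 0.000815). SMIM14 fell by 1.09 and SESN2 by 0.60, whereas both were higher in the UGT1A3 pair, by 0.85 and 0.66. CCND1 rose by 0.19 with 4 of 4 probe sets (limma adjusted p 0.00299 to 0.00729), ASF1B by 0.31 and FOXM1 by 0.19, and these 3 were lower in the UGT1A3 pair. For each of the genes in this paragraph all 3 USF1 knockdown arrays lay on one side of all 3 controls.

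Other genes had the same sign in both sets. PRDX3 fell by 0.30 after USF1 knockdown (limma adjusted p 0.000835 and 0.00153), a smaller size than its difference of -1.77 in the UGT1A3 pair. PAK4 fell by 0.40 with 5 of 5 probe sets past the threshold. TP53INP1 rose by 0.86 (limma adjusted p 5.4e-05), ABCA1 by 0.92 (0.000141 and 0.00374), APOE by 0.60 (8.28e-05), GABARAPL1 by 0.68 (6.1e-05 to 0.000536) and TGFBI by 0.60 (0.000235 to 0.00267). H2BC5 rose by 0.50 and IRF9 by 0.42, each with every probe set past the threshold. RAP1A had 1 of 4 probe sets past the threshold, a rise of 2.48 (limma adjusted p 3.16e-06), while its median change was 0.07. All 3 USF1 knockdown arrays lay on one side of all controls for each of these genes too. The difference between the 2 knockdowns was not tested for any gene.

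**Figure D5:**
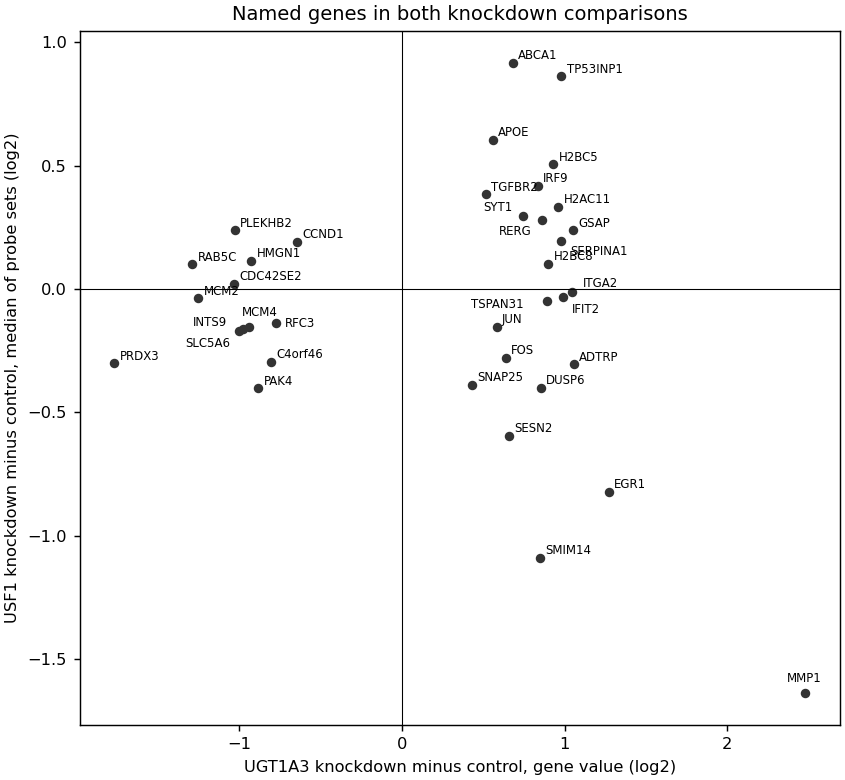
Each point is a named gene, with knockdown minus control (log2) in the UGT1A3 pair on the horizontal axis and the median change of its probe sets after USF1 knockdown (log2) on the vertical axis. MMP1 lies at 2.48 and -1.64, PRDX3 at -1.77 and -0.30, and MCM2 at -1.25 and -0.04.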

How the data were processed

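The members, lists, named genes and settings were chosen with earlier results of these data known. After values were seen, an older symbol of RIGI was removed from the interferon list, which had held that gene under both names, and the measured genes and values of the list stayed as they were. The authors deposited log2 intensities per probe set, and their range gave the log base. The submitters' processing notes list MAS5 with no role, and the scaling between arrays is not stated in the labels. Symbols came from the platform annotation, where 44961 of 44988 probe sets with 1 symbol matched GRCh38.p14 by Entrez number. The 102 control probe sets, 1832 with several symbols (the UGT1A locus apart) and 2473 with none were left out. Python 3.11.15 and pandas 2.3.3 computed the gene differences. The USF1 arrays were fitted with limma 3.58.1 (lmFit and eBayes in R 4.3.3, tested on simulated data), with two-sided p-values adjusted over 29576 probe sets.

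The text names UGT genes, the 12 genes a direction whose probe sets share a sign with the largest smallest-in-size difference, the 6 largest with 1 probe set, up to 4 whose probe sets disagree, up to 4 members a list, and RAP1A. Some are left out, and members beyond 4 a list were named after their values were seen. Lists and families not described had medians between -0.19 and 0.12. Alternatives were centring, quantile normalization, other dim limits, 16 intensity units added and other summaries of probe sets. The number of arrays limits the precision.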

Additional observations from a re-analysis of the deposited data

How the results depend on the processing

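Raising the dim limit to the 60th percentile left counts of higher genes smaller: 122 genes were 1.5-fold or more higher, 10 were 2-fold or more higher and 178 had all bright probe sets higher by 0.32 or more. With 16 intensity units added before log2, 98 and 7 genes were 1.5-fold and 2-fold or more higher, which lowers the differences of dim genes by construction. The other counts in the UGT1A3 pair stayed within 1.5 times under these and the other alternatives. With no dim limit, 4 list medians of 0.1 or more in size changed sign: S100 proteins to -0.0081, fibroblast markers to 0.015, neuroendocrine markers to -0.0090 and hepatocyte and enterocyte markers to -0.050, and this alternative adds dim genes. Of all 557 list medians under alternatives, 388 moved little and 165 moved by more than the replicate arrays did. A further 24 changes of sign concerned medians under 0.1 in size. Of 1772 values of named genes, 168 moved by more than the spread between replicate arrays, and 1 changed sign: UGT8, from -0.06 to 0.03 with the mean of its probe sets.

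In the USF1 comparison the replicate block gave 5273 probe sets up and 4726 down. The correlations of deviations between arrays of the same replicate number were -0.088, 0.17 and 0.081. These small values do not settle whether the numbers pair the arrays. Leaving out 1 array gave 4206 to 5789 up and 3888 to 5195 down. Depth limits are those of dim probe sets: no UGT1A probe set could be read above the limit.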

Other observations

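Zinc finger genes of the ZNF series, most of which encode KRAB repressors, leaned upward. Of 369 above the dim limit, 244 were above 0, with a median of 0.09. Of them 56 were higher by 0.32 or more and 15 lower, against 9.79% and 7.46% of all genes. Where both arrays had to reach the dim limit, 363 were measured, 51 higher and 14 lower. ZNF425 differed by 0.96 and ZNF226 by 0.81, and ZNF468 by -0.70. The median lay between 0.05 and 0.10 under the alternatives, and between replicate arrays of a USF1 group it reached 0.08, so the shift is close to the spread between arrays. Of 25 long intergenic RNA genes 7 were higher by 0.32 or more and none lower, against 9.79% and 7.46% of all genes. LINC00205 was at 0.90. Their median was 0.04, with 13 above 0 and 12 below, and between replicate USF1 arrays it reached 0.09 in size.

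Proteasome genes had 26 of 31 measured below 0 with a median of -0.11. Only 1 was lower by 0.32 or more (PSMC4, -0.40), against 7.46% of all genes. The immunoproteasome genes PSMB9 and PSMB8, which interferon induces, differed by 0.43 and 0.35. S100 genes had 3 of 10 higher and none lower, against 9.79% and 7.46% of all genes. S100A13 was at 0.45 and S100A16 at 0.44. Of 16 RNA interference genes 2 were higher (TNRC6A, 0.37, and TNRC6B, 0.32) and 1 lower, against 9.79% and 7.46% of all genes, with a median of -0.02. The lower one was DICER1, which cuts hairpin precursors, at -0.46 over 4 probe sets at -0.74 to -0.35. ANGPTL4, a lipase inhibitor, read 8.28 and 9.42, and its glycolysis and hypoxia list had a median of -0.09, with HK2 at -0.56 and ADM at -0.55.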
